A study of Mus musculus with 6 samples.

Results

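Canonical histone cluster genes encode the 5 histone types from which chromatin is built, and 46 of them were counted in RNA-seq libraries of F4/80high and F4/80low tumor-associated macrophages (TAMs). They were taken as the protein-coding genes whose symbol starts with Hist1h, Hist2h, Hist3h or Hist4 and whose counts over the 6 libraries summed to at least 10. These are 46 of the 56 protein-coding histone cluster genes listed and of 14776 protein-coding genes tested. They comprise 5 genes of the linker histone H1, 7 of H2A, 15 of H2B, 8 of H3 and 11 of H4. Of the 44 with an identifier in the GENCODE M21 annotation of GRCm38, 38 lie on chromosome 13, 3 on chromosome 3, 2 on chromosome 11 and 1 on chromosome 6.

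The macrophages came from tumors of YUMM1.7, a mouse melanoma cell line, injected in the skin of female C57Bl/6J mice that were 8 weeks old at tumor induction and received no further treatment. On day 21, 10 tumors were pooled in each of 3 independent experiments, and live cells positive for CD45, CD11b and F4/80 were sorted by their F4/80 level. F4/80, encoded by Adgre1, is a surface protein of macrophages. Each experiment gave 1 F4/80high and 1 F4/80low library of poly-A RNA, named here by the replicate number, so a value stands for a pool of tumors and not for an animal.

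H2A, H2B, H3 and H4 form the core around which DNA is wrapped, and H1 binds the linker DNA between cores. Most cluster genes are transcribed in S phase, have no introns, and give messages that end in a conserved stem-loop bound by Slbp in place of a poly-A tail. Some cluster genes can also give polyadenylated messages that run past the stem-loop, as happens in cells that have left the cell cycle. A library of poly-A RNA therefore holds only those histone messages that carry a tail or escaped the selection, and the levels below are levels in such libraries.

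The stem-loop letters stand after the stop codon in an annotated transcript of most of these genes, and they are shown because they are what the members share besides their names. The 16 letters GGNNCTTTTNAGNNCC were found on the sense strand of a GENCODE M21 transcript in 33 of 46 members, against 34 of 21884 other protein-coding genes (0.155%). All 7 H2A members had a match, as did 3 of 5 H1, 8 of 15 H2B, 6 of 8 H3 and 9 of 11 H4 members. The H2B members Hist1h2bh and Hist1h2bm have no transcript in M21 and could not be searched. Some others without a match have short annotated models, such as Hist1h4k with 312 bases. The absence of a match therefore does not show that a gene lacks the stem-loop. The 33 matches used 4 spellings, given here in capitals within an example and with the annotated flanks in lower case.
Hist1h1c (GRCm38, + strand, chr13:23739512-23739527): caaaaGGCTCTTTTCAGAGCCaccact
Hist1h4d (GRCm38, + strand, chr13:23581950-23581965): ccaaaGGCCCTTTTCAGGGCCactacc
Hist1h3e (GRCm38, - strand, chr13:23561903-23561918): aaaacGGCTCTTTTAAGAGCCacctcc
Hist1h4i (GRCm38, - strand, chr13:22040966-22040981): ttaaaGGCCCTTTTTAGGGCCaccaca
The coordinates cover the capitals. The Hist1h1c spelling was shared by 19 members, that of Hist1h4d by 7, that of Hist1h3e by 5 and that of Hist1h4i by 2. Both spellings with a GGCC stem were found in H4 genes alone among the members with a match.

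The promoters shared short motifs in proportions that differed by type. RefSeq promoters of GRCm38.p6, running from 250 bases before to 50 bases after the start of transcription, were matched for 38 of the 46 members. TATAAA on either strand stood in 24 of 38, against 13.6% of all RefSeq promoters. CCAAT on either strand stood in 31 of 38, against 37.4%, and the members without it were all H4 genes, where 3 of 10 had it. ATTTGCA, the core letters of the octamer, stood on either strand in 7 of 38, against 4.02%, and these were 4 of 6 H2A and 3 of 11 H2B promoters. The 250 bases before the start are shown for Hist1h1c, which took most of the counts. They are also shown for Hist3h2a, whose scaled level was even across libraries, and for Hist1h4d, whose scaled level was not. These motifs are in capitals on whichever strand they were read.
Hist1h1c (GRCm38.p6, + strand, chr13:23738557-23738806): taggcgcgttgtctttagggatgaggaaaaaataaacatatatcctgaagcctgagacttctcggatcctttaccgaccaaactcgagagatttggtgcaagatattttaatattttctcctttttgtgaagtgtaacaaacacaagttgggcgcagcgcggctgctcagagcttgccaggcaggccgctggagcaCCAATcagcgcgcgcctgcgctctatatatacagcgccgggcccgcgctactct
Hist3h2a (GRCm38.p6, + strand, chr11:58954435-58954684): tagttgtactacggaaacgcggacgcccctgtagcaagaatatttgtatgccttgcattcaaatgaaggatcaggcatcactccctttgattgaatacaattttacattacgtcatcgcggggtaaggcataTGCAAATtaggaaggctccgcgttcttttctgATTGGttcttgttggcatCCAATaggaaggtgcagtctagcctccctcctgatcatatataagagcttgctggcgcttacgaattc
Hist1h4d (GRCm38.p6, + strand, chr13:23581318-23581567): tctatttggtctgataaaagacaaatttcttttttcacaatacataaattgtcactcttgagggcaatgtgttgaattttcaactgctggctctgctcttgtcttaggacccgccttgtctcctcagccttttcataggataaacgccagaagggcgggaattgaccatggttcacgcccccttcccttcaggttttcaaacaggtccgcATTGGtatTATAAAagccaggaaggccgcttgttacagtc
A match is a description of the letters only, and binding to them was not measured.

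Replicate 3 of both subsets stood apart from the other libraries. The study draws replicates 1 and 2 as batch 1 and replicate 3 as batch 2, and batch and experiment cannot be told apart for batch 2. Total counts were 30292061 to 43604373 in batch 1 and 16045281 and 16204810 in batch 2. Lars2, Gm23935 and Gm15564 together took 0.378% to 0.609% of all counts in batch 1 and 17.1% and 16.1% in batch 2. Genes shorter than 1000 bases took 3.83% to 4.61% of the tested counts in batch 1 and 1.59% and 1.64% in batch 2. After scaling by TMM (trimmed mean of M values), 1 count was worth 0.0194 to 0.0252 CPM (counts scaled to the library size) in batch 1 and 0.108 and 0.114 CPM in batch 2. Of the 46 histone genes, 43 to 46 had a count in each batch 1 library, 23 in F4/80high replicate 3 and 20 in F4/80low replicate 3.

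One H1 gene carried most of the histone reads. Hist1h1c, which encodes histone H1.2, held 38603 of the 55770 counts of the 46 genes (69.2%), and between 40.0% and 79.5% of them in a single library. By type, H1 held 74.0% of the counts, H2B 16.5%, H2A 4.32%, H4 3.68% and H3 1.48%. On a scale of CPM per kilobase of the deposited gene length, Hist1h1c lay between 114 and 203 in batch 1 and at 12.4 in both libraries of batch 2. The H2B gene Hist1h2bc followed at 33.9 to 62.9 in batch 1 and 15.7 and 10.1 in batch 2. The H2A gene Hist1h2ao lay between 8.25 and 16.3 in batch 1 and at 0.450 and 0.712 in batch 2. Another H2A gene, Hist3h2a, lay between 1.91 and 2.30 in all 6 libraries.

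**Figure D1:**
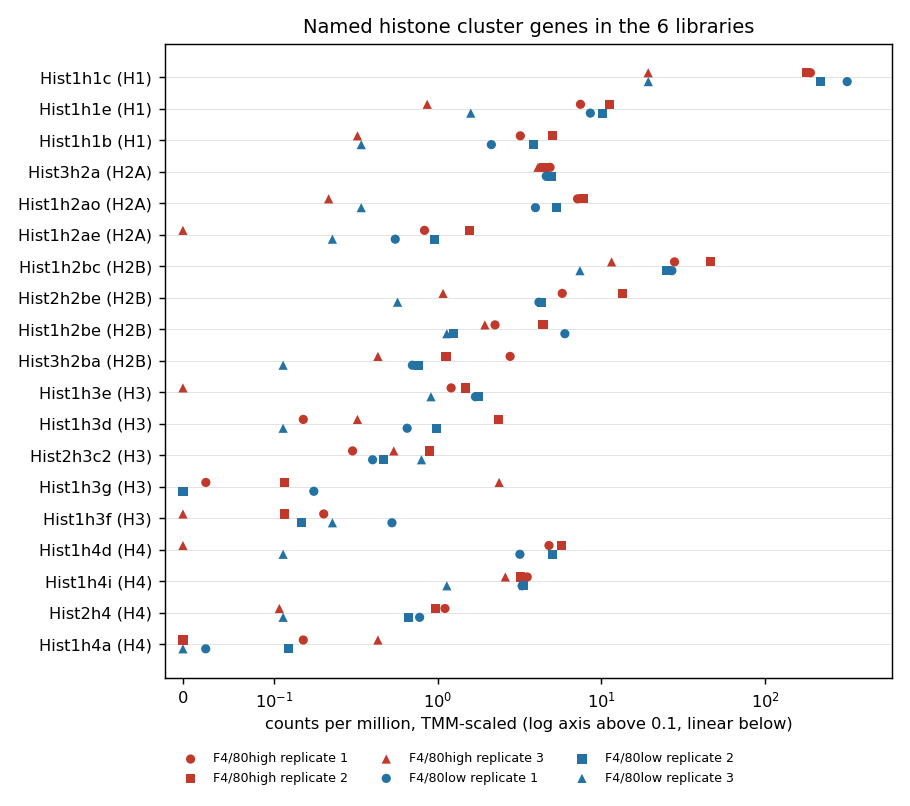
Level of the 19 named histone cluster genes in each library, in TMM-scaled CPM on the x axis (log above 0.1, linear below), with F4/80high in red, F4/80low in blue and the replicate number as the marker shape. The triangles of replicate 3 lie to the left of the other markers for most genes, whereas Hist3h2a lies between 4.10 and 4.94 CPM in all 6 libraries.

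The first comparison asked whether the 2 macrophage subsets differ in histone cluster transcripts. With edgeR's quasi-likelihood test and a batch term, 0 of 46 members passed an adjusted p of 0.05 with an absolute log2 fold change above 1, and the same call took 0 of all 14776 genes (0%). At an unadjusted p under 0.05 there were also 0 of 46 members, against 7.57% of all genes (3.26% with F4/80high and 4.30% with F4/80low higher). DESeq2 called 0 members, where it called 150 of all 14776 genes. It gave 1 member at an unadjusted p under 0.05, for which its share over all genes was not computed. In no member did the 3 libraries of a subset lie wholly above those of the other, where 2.27% of all genes did so with F4/80high above and 2.88% with F4/80low above. That count is limited by the batch. For 32 members (69.6%, against 32.0% of all genes) both batch 2 libraries, 1 of each subset, lay below all 4 of batch 1. Those members could not separate by subset. The point estimates were above 0 (higher in F4/80high) for 32 members and below 0 for 14, with a median log2 fold change of 0.36 beside 0.01 for all genes. That median was 0.14 when genes with few counts were removed by filterByExpr, 0.18 without F4/80low replicate 1, and 0.15 without F4/80high replicate 3, without F4/80low replicate 3 or without both. In bulk libraries, fewer cells that make a transcript and less of it per cell cannot be told apart.

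The summed level of all 46 genes followed no common direction in the 3 replicate pairs. It was 279, 303 and 48.3 CPM in F4/80high replicates 1, 2 and 3, and 399, 303 and 40.0 CPM in F4/80low replicates 1, 2 and 3. The means were 210 ± 141 and 247 ± 186 CPM (SD, n = 3 each), so the spread within a subset was larger than the distance between the subsets. The log2 ratio of F4/80high to F4/80low was -0.51, 0.0042 and 0.27 in pairs 1, 2 and 3. Without the highest gene of each type, Hist1h1c among them, the ratio of the sum was 0.095, 0.39 and 0.54, higher in F4/80high in each pair. Counting error alone is narrow here, with an exact 95% interval of 43.9 to 53.0 CPM around the 48.3 CPM of F4/80high replicate 3.

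**Figure D2:**
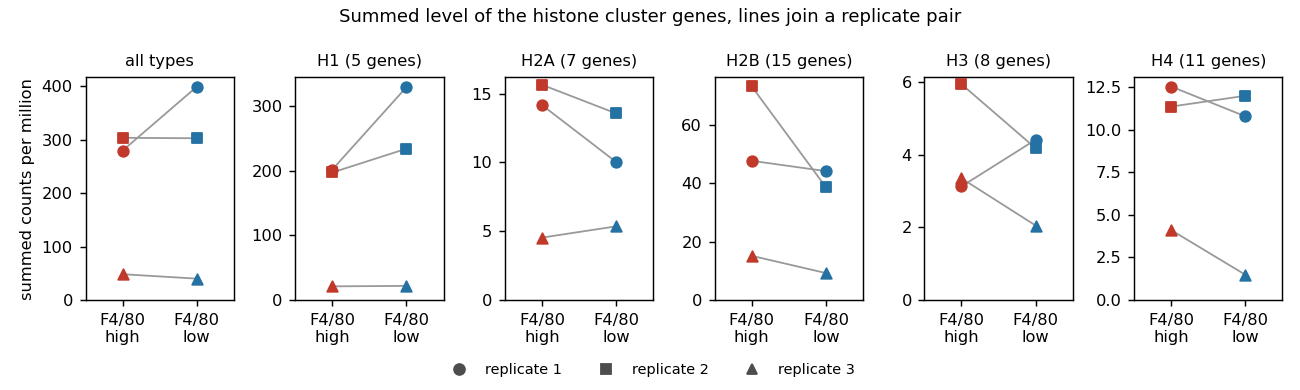
Summed TMM-scaled CPM of the histone cluster genes, all together and by type, with 1 point per library and a line joining the libraries of a replicate pair. On this scale H1 lies lower in F4/80high in all 3 pairs and H2B higher in all 3 pairs, and the replicate 3 pair lies lowest in each panel but that of H3.

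H1 had a mean log2 ratio of -0.33 over the pairs, whereas those of H2A, H2B, H3 and H4 were 0.16, 0.58, 0.24 and 0.54. The H1 sum was 202, 197 and 21.2 CPM in F4/80high and 330, 234 and 21.9 CPM in F4/80low replicates 1, 2 and 3, with log2 ratios of -0.71, -0.25 and -0.047. Hist1h1c made up most of it, with 189, 179 and 19.3 CPM in F4/80high and 317, 217 and 19.4 CPM in F4/80low. On this scale F4/80high lay below its partner in every pair, by very little in the third, and the subsets overlapped. Scaled by the total count instead, the H1 sum turned in the third pair, to a log2 ratio of 0.044 on 196 counts against 192. The log2 fold change of Hist1h1c was -0.37 (SE 0.24), with an adjusted p of 0.738 by edgeR's quasi-likelihood test. Hist1h1e, the gene of histone H1.4, had 7.46, 11.3 and 0.864 CPM in F4/80high and 8.57, 10.2 and 1.59 CPM in F4/80low. Hist1h1b, the gene of H1.5, had 3.20, 5.02 and 0.324 CPM in F4/80high and 2.13, 3.83 and 0.342 CPM in F4/80low. Neither gene kept 1 direction over the pairs, and their log2 fold changes were -0.22 (SE 0.41) and 0.35 (SE 0.62). Without Hist1h1c the log2 ratio of the H1 sum was 0.037, 0.13 and -0.45 in the 3 pairs.

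H2B had a higher summed level in F4/80high in each pair. The H2B sum was 47.6, 73.1 and 15.1 CPM in F4/80high and 44.1, 38.6 and 9.22 CPM in F4/80low replicates 1, 2 and 3, with log2 ratios of 0.11, 0.92 and 0.71. Of the 15 H2B genes, 14 had an estimate above 0, where 7500 of all 14776 genes did, and the median log2 fold change was 0.55. Both batch 2 libraries had 0 counts for 10 of these genes, and the highest estimate, 3.09 (SE 2.41) for Hist1h2bp, rests on 24 counts. Several also share sequence with other histone genes, so the 14 cannot be taken as independent. Of the 15, 0 were called. Hist1h2bc had 28.0, 46.3 and 11.6 CPM in F4/80high and 27.0, 25.0 and 7.40 CPM in F4/80low. It was higher in F4/80high in 3 of 3 pairs while the subsets overlapped, with a log2 fold change of 0.55 (SE 0.28, adjusted p = 0.694 by edgeR).

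Hist2h2be, an H2B gene on chromosome 3, had the smallest unadjusted p of the 46. It had 5.77, 13.4 and 1.08 CPM in F4/80high and 4.16, 4.32 and 0.569 CPM in F4/80low. F4/80high was higher in each pair, by most in replicate 2. The log2 fold change was 1.12 (SE 0.50), with an unadjusted p of 0.0508 and an adjusted p of 0.664 by edgeR. None of its 75-base stretches is shared with another histone gene in the annotation. Hist3h2ba, an H2B gene on chromosome 11, had 2.77, 1.13 and 0.432 CPM in F4/80high and 0.702, 0.761 and 0.114 CPM in F4/80low, with a log2 fold change of 1.51 (SE 0.92, adjusted p = 0.716 by edgeR). Hist1h2be, with 2.24, 4.40 and 1.94 CPM in F4/80high and 5.99, 1.25 and 1.14 CPM in F4/80low, took opposite directions in pairs 1 and 2.

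H2A, H3 and H4 had no direction that held in all 3 pairs. The H2A sum was 14.2, 15.6 and 4.53 CPM in F4/80high and 10.02, 13.6 and 5.35 CPM in F4/80low, with log2 ratios of 0.50, 0.21 and -0.24. Hist3h2a had 4.86, 4.46 and 4.10 CPM in F4/80high and 4.61, 4.94 and 4.78 CPM in F4/80low, and its log2 fold change was -0.093 (SE 0.42). Hist1h2ao had 7.16, 7.82 and 0.216 CPM in F4/80high and 3.96, 5.33 and 0.342 CPM in F4/80low, with a log2 fold change of 0.46 (SE 0.51). Hist3h2a thus gave most of the H2A sum in both libraries of batch 2. Hist1h2ae lay between 0 and 1.57 CPM in F4/80high and between 0.228 and 0.958 CPM in F4/80low.

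The H3 genes took the fewest counts of the 5 types. Their sum was 3.12, 5.94 and 3.35 CPM in F4/80high and 4.41, 4.17 and 2.05 CPM in F4/80low, with log2 ratios of -0.50, 0.51 and 0.71. Hist1h3e had 1.21, 1.47 and 0 CPM in F4/80high and 1.70, 1.77 and 0.911 CPM in F4/80low. It was lower in F4/80high in 3 of 3 pairs, with a log2 fold change of -1.22 (SE 1.08, adjusted p = 0.801 by edgeR). Hist1h3f was also lower in F4/80high in each pair, at 0.202, 0.116 and 0 CPM against 0.526, 0.147 and 0.228 CPM, which rests on 43 counts in all. Hist1h3d had 0.151, 2.35 and 0.324 CPM in F4/80high and 0.651, 0.982 and 0.114 CPM in F4/80low, so replicate 2 held the highest value of both subsets. Hist2h3c2 lay between 0.302 and 0.892 CPM in F4/80high and between 0.401 and 0.797 CPM in F4/80low.

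Hist1h3g had most of its 36 counts in 1 library. There were 22 counts (2.38 CPM) in F4/80high replicate 3, 1 and 6 in F4/80high replicates 1 and 2, 7 in F4/80low replicate 1 and 0 in the other F4/80low libraries. Hist1h3g thus gave most of the H3 sum of 3.35 CPM in F4/80high replicate 3.

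The H4 sum was 12.5, 11.3 and 4.10 CPM in F4/80high and 10.8, 12.0 and 1.48 CPM in F4/80low, with log2 ratios of 0.22, -0.078 and 1.47. The third pair rests on 38 counts against 13. Hist1h4d had 4.79, 5.70 and 0 CPM in F4/80high and 3.18, 5.06 and 0.114 CPM in F4/80low, with a log2 fold change of 0.14 (SE 0.67). Hist1h4i had 3.53, 3.22 and 2.59 CPM in F4/80high and 3.28, 3.36 and 1.14 CPM in F4/80low, with a log2 fold change of 0.37 (SE 0.54). Hist2h4 had 1.11, 0.970 and 0.108 CPM in F4/80high and 0.777, 0.663 and 0.114 CPM in F4/80low. Hist1h4a never exceeded 6 counts in a library.

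**Figure D3:**
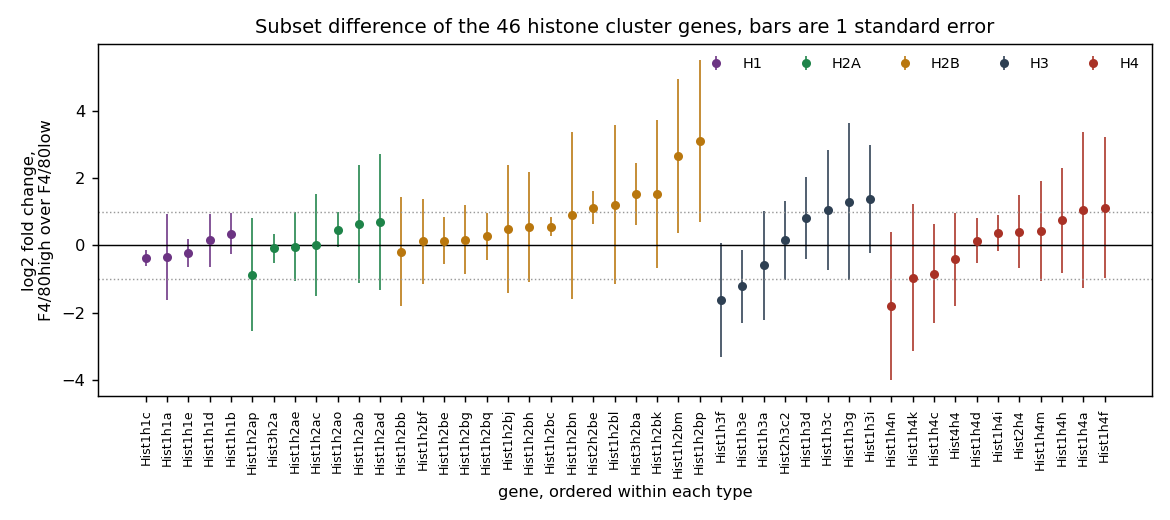
Log2 fold change of F4/80high over F4/80low for each of the 46 histone cluster genes from the edgeR fit, ordered within each type, with bars of 1 SE and dotted lines at 1 and -1. The point estimates run from -1.81 to 3.09, and the widest bars belong to genes with few counts.

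Few members kept 1 direction in all pairs. Of the 46, 4 genes were higher in F4/80high in 3 of 3 pairs, Hist1h2bc, Hist2h2be, Hist3h2ba and Hist1h3i, where 16.0% of all genes were. Lower in 3 of 3 pairs were 3 genes, Hist1h1c, Hist1h3e and Hist1h3f, where 15.7% of all genes were, although Hist1h1c had 179 counts against 170 in pair 3 and turns there when scaled by the total count. In pair 3, 19 members had 0 counts in both libraries and so had no direction, while 15 were higher in F4/80high and 12 in F4/80low. In pair 1 the numbers were 26 and 20, and in pair 2 they were 27 and 19. Fitting each replicate pair as its own block, instead of the batch, called 0 members and 76 of all genes (0.514%). At an unadjusted p under 0.05 the block gave 0 members as well, against 9.84% of all genes.

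The second comparison set batch 2 against batch 1, adjusted for subset. Batch 2 is 1 experiment, so the p-values for batch do not measure a spread between experiments in it. Here 10 of 46 members were called lower in batch 2 (21.7%), close to the 20.1% of all genes, and 0 were called higher (0 by DESeq2 as well), where 17.8% of all genes were. Scaled by library size alone, 17 members were lower and 0 higher, and the calls over all genes moved from 2969 lower and 2627 higher to 6096 and 1183. The called genes were Hist1h1c, Hist1h1e and Hist1h1b of H1, Hist1h2ao of H2A, Hist1h2bc, Hist2h2be, Hist1h2bq, Hist1h2bg and Hist1h2bf of H2B, and Hist1h4d of H4. Both batch 2 libraries lay below all 4 of batch 1 for 32 members (69.6%), against 32.0% of all genes. The summed level of the 46 genes on the TMM scale averaged 321 CPM in batch 1 and 44.1 CPM in batch 2, a ratio of 7.28. By type the ratio was 11.2 for H1, 4.18 for both H2B and H4, 2.70 for H2A and 1.64 for H3. The size of these ratios depends on the scaling. With levels scaled by the total count instead, the ratio was 16.0 for all 46 genes. By type it was then 24.7 for H1, 9.12 for both H2B and H4, 5.99 for H2A and 3.56 for H3.

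Hist1h1c was lower in batch 2 by a log2 fold change of -3.51 (SE 0.31, adjusted p = 3.98e-05 by edgeR). Pooled over libraries it was 11.5-fold lower (95% counting interval 10.4 to 12.8), from 38254 counts in batch 1 and 349 in batch 2. Hist1h2bc, with 7.40 and 11.6 CPM in batch 2 and 25.0 to 46.3 CPM in batch 1, had a log2 fold change of -1.75 (SE 0.32, adjusted p = 0.00240 by edgeR). Hist1h1e and Hist2h2be had log2 fold changes of -2.96 (SE 0.52) and -3.03 (SE 0.62). Hist1h2ao had a log2 fold change of -4.38 (SE 0.70, adjusted p = 0.00110), from 1062 counts to 5, and Hist1h4d fell from 817 counts to 1, a pooled ratio of 85.8 with a counting interval of 15.4 to 3392.

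Some members were not detected in batch 2, where depth was lower. Of the 46, 19 had 0 counts in both batch 2 libraries, against 5.30% of all genes. Their folds are bounds, set against 3 counts over the 2 libraries together. Hist1h2bq was at least 21.0-fold lower, Hist1h2bg at least 9.38-fold and Hist1h2bf at least 6.47-fold. For 7 of the 19 the batch 1 level was itself at or under that floor, so no fold is given. Over the remaining 39 members the median log2 ratio of batch 2 to batch 1, with 12 of them at their bound, was -1.77, beside -0.26 for all genes taken the same way. The median of the fitted log2 fold changes, which depends on the prior count for such genes, was -3.24, beside -0.35 for all genes.

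**Figure D4:**
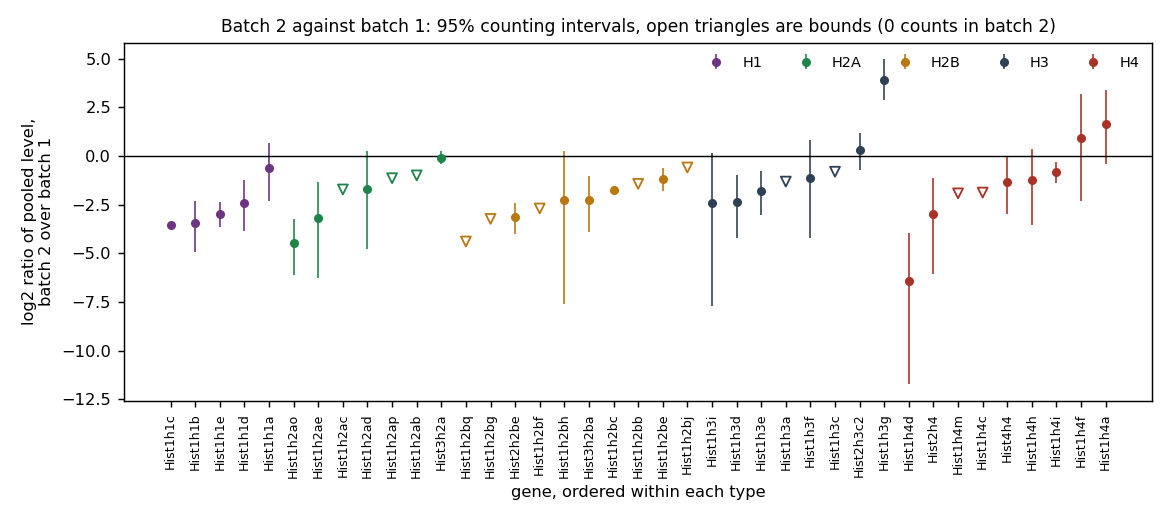
Log2 ratio of the pooled TMM-scaled level in batch 2 (2 libraries) over batch 1 (4 libraries) for 39 histone cluster genes, ordered within each type. Bars are 95% counting intervals, and open triangles are the bounds of 12 genes with 0 counts in batch 2. Of the 39 genes, 35 lie below 0, Hist3h2a and Hist2h3c2 lie near 0 and Hist1h3g lies highest.

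On the TMM scale, not every member was lower in batch 2. Hist3h2a had 4.46 to 4.94 CPM in batch 1 and 4.10 and 4.78 CPM in batch 2. Its pooled ratio was 1.06 (counting interval 0.842 to 1.35) and its log2 fold change -0.090 (SE 0.45). That evenness rests on the scaling, with TMM factors of 1.21 to 1.34 in batch 1 and 0.646 and 0.602 in batch 2. Hist3h2a had 184 to 230 counts in each batch 1 library and 38 and 42 in batch 2. Scaled by the total count, it was lower in both batch 2 libraries than in all of batch 1. Hist1h4i had a pooled ratio of 1.77 (1.25 to 2.58) and was not called, with an adjusted p of 0.270 by edgeR. Hist2h3c2 had a log2 fold change of 0.39 (SE 1.25) on 105 counts. Hist1h3g and Hist1h4a had estimates above 0, at 3.13 (SE 2.58) and 1.08 (SE 2.54), and neither was called.

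Gene length moved with the batch over all genes. The median fitted log2 fold change of batch 2 over batch 1 was -0.65 for 178 other genes shorter than 600 bases, -1.22 for 513 of 600 up to 1000 bases, -1.05 for 4874 of 1000 up to 3000 bases and 0.096 for 9165 of 3000 bases or more. For the 28 histone genes shorter than 600 bases it was -4.75, and for the 18 longer ones -2.29. These medians are not at like count levels. Both batch 2 libraries had 0 counts for 17 of the 28 and 2 of the 18, against 24 of the 178 other short genes. For such genes the fitted value depends on the prior count. Among genes with under 200 counts in all and under 600 bases, 24 of 92 others had 0 counts in batch 2, as had 17 of the 31 histone genes with under 200 counts, of any length. The part of length, of depth and of the features that took 16.1% and 17.1% of the counts in the batch difference of the histone genes was not tested.

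Counts differed with the length of the transcript annotated beyond the stem-loop. In GENCODE M21, 18 members have a transcript with 100 or more bases after the stem-loop (151 to 4884), 15 have fewer (3 to 74) and 13 have no match. The split was chosen after the values were seen, and 2 of the 13 have no M21 transcript. The first group held 81.2% of all histone counts, with a median of 250 counts a gene. Most of that share was Hist1h1c alone, with 69.2% of all histone counts. The second held 3.46%, with a median of 63, and the third 15.3%, with a median of 47. Over the 33 genes with a match, counts and bases after the stem-loop had a Spearman correlation of 0.56. It is given as a description, since longer gene models can also collect more reads and all points share the 6 libraries. The bases are those of M21, and the deposited length is shorter than M21 for 16 of the 46 members. The counts of those members need not cover these bases.

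**Figure D5:**
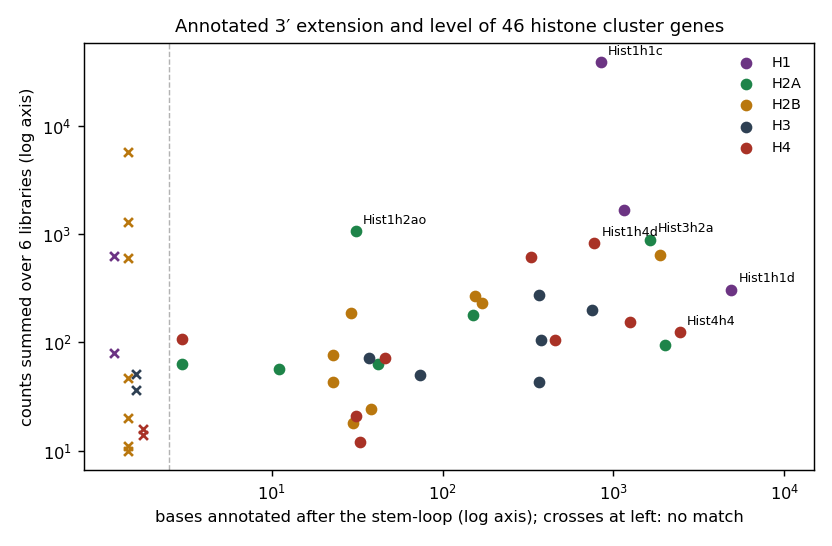
Counts summed over 6 libraries (y axis, log) against the bases annotated after the stem-loop in GENCODE M21 (x axis, log) for 33 histone cluster genes, colored by type, with crosses at the left for 13 genes without a match, spread by type only. Hist1h1c, with 840 bases after the stem-loop, lies highest, and Hist1h2ao, with 31, is the highest of the genes under 100 bases.

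Hist1h1c has 840 annotated bases after its stem-loop, Hist3h2a has 1643, Hist1h4d 770 and Hist1h1e 1153. The 2 genes called lower in batch 2 with under 100 bases were Hist1h2ao, with 31, and Hist1h2bf, with 29. In batch 2, 3 of the 18 genes with the longer extension had 0 counts, as had 11 of the 15 with the shorter. The deposited length equals the merged exon length in M21 for 25 of the 46 members and is shorter for 16, as for Hist1h1e (748 against 1930 bases) and Hist1h4d (393 against 1138). The gene models used for counting are thus shorter than M21 for these genes.

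Copies of a histone type are alike in sequence, which limits what a count of a single gene means. Of 44 members with M21 transcripts, 16 share at least 50% of their 75-base stretches with another histone gene, with a median over the 44 of 36.8% and a highest value of 96.1% for Hist1h2bq. Hist1h2ao shares 93.1%, Hist1h1c 6.66% and Hist1h4d 3.67%. How reads matching several copies were counted is not given in the sources used here, so single values of the shared genes are uncertain. Of the 44, 5 genes share none, Hist1h1a, Hist1h1b, Hist2h2be, Hist2h4 and Hist4h4. Their summed level had log2 ratios of F4/80high to F4/80low of 0.48, 0.90 and 0.54 in the 3 pairs, the third on 20 counts against 13.

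Genes of histones made outside S phase took more counts and were not called between the subsets. Of 11 replication-independent histone genes, 0 were called and 3 had an estimate above 0, with a median log2 fold change of -0.13. H3f3b, which encodes the variant H3.3, had 2217, 2427 and 2127 CPM in F4/80high and 2804, 2873 and 2305 CPM in F4/80low. It was lower in F4/80high in each pair, with a log2 fold change of -0.23 (SE 0.20, adjusted p = 0.801 by edgeR), and its batch difference was -0.21 (adjusted p = 0.468). H2afz, the gene of H2A.Z, had 224, 222 and 226 CPM in F4/80high and 225, 368 and 246 CPM in F4/80low. The summed level of the 11 genes lay between 3193 and 4060 CPM in all 6 libraries, batch 2 included, and H3f3b gave most of it. That range is on the TMM scale, with factors of 1.21 to 1.34 in batch 1 and 0.646 and 0.602 in batch 2. Scaled by the total count, the sum was lower in both batch 2 libraries than in all of batch 1. Single genes were less even. Of the 11, 4 were called lower in batch 2, where 20.1% of all genes were, and 1 higher, where 17.8% were.

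Factors that process histone messages did not differ by the test either. Of 19 genes of histone mRNA processing and turnover, none was called (0 of 19), and 0 reached an unadjusted p under 0.05. Slbp, which binds the stem-loop, had 104, 90.3 and 48.7 CPM in F4/80high and 98.1, 84.9 and 81.9 CPM in F4/80low, with a log2 fold change of -0.19 (SE 0.25). Npat, which activates histone gene transcription, had 14.0, 19.2 and 24.9 CPM in F4/80high and 14.1, 11.4 and 23.7 CPM in F4/80low. Of 22 histone chaperones 0 were called. Asf1b, a chaperone of H3 and H4, had 22.1, 37.2 and 7.99 CPM in F4/80high and 14.7, 23.1 and 4.78 CPM in F4/80low, a log2 fold change of 0.68 (SE 0.32, adjusted p = 0.687 by edgeR).

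Most S phase genes had a higher estimate in F4/80high without passing the call. Of 34 genes of DNA replication and S phase, 30 had an estimate above 0, with a median log2 fold change of 0.47, and 8 had an unadjusted p under 0.05, all with F4/80high higher, where 3.26% of all genes did so. Of the 34, 0 were called. Mcm2, a subunit of the replicative helicase, had 46.3, 57.6 and 20.4 CPM in F4/80high and 33.6, 33.9 and 6.72 CPM in F4/80low, a log2 fold change of 0.92 (SE 0.28, adjusted p = 0.516 by edgeR). Lig1, the replicative DNA ligase, had 26.5, 40.5 and 60.1 CPM against 15.4, 22.9 and 28.8 CPM, a log2 fold change of 0.89 (SE 0.28, adjusted p = 0.530). Mki67, a marker of cycling cells, had 48.5, 77.3 and 86.4 CPM in F4/80high and 46.7, 72.3 and 45.2 CPM in F4/80low. The difference between this list and the histone cluster genes was not tested.

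Markers of other cells were present in the sorted libraries, which the study's methods describe as lineage-negative. The 10 macrophage markers, Adgre1 and Csf1r among them, summed to 4685 to 13880 CPM in F4/80high and 2512 to 6638 CPM in F4/80low. The 9 neutrophil markers summed to 722 to 2040 CPM in F4/80high and 1486 to 4586 CPM in F4/80low, and the 11 T and NK cell markers to 259 to 1541 and 128 to 719 CPM. The T and NK sum was 488 to 1541 CPM in batch 1 and 128 and 259 CPM in batch 2, and that of 6 B and plasma cell markers was 58.7 to 138 CPM in batch 1 and 6.60 and 10.9 CPM in batch 2. The melanoma markers summed to 20.1 to 44.5 CPM in batch 1 and to 259 and 489 CPM in batch 2, nearly all of it from Kit and Mitf, which other cells also use, while Mlana had 1 count in F4/80low replicate 1 and 0 in the other libraries. All 11 T and NK cell markers had counts in every library, as had all 6 B and plasma cell markers apart from Jchain, at 0 in F4/80low replicate 3. The part of these cells in the histone counts was not tested.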

How the data were processed

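RNA was measured in 3 F4/80high and 3 F4/80low libraries of poly-A RNA (RNA integrity 7 or higher per the labels). The authors deposited, for each library, whole-number read counts for 23424 genes with a length and a biotype and no normalization. The aligner, counting rule, strand and annotation are not given in the sources used here. Of the gene IDs, 99.3% were found in GENCODE M21.

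Protein-coding genes by the deposited biotype were kept at 10 counts or more in total (14776), and their counts were tested in R 4.3.3 with edgeR 4.0.16 (quasi-likelihood, TMM, batch and subset), Benjamini-Hochberg adjusted over all of them, and called at an adjusted p under 0.05 with an absolute log2 fold change above 1. The SE of an edgeR log2 fold change is its absolute value divided by the square root of the F statistic of the test. It was not fitted separately. DESeq2 1.42.0 was an alternative. The steps were tested on simulated data. CPM use the TMM-scaled library size. Pair directions by gene use log2 CPM with a prior count of 2, intervals are 95% exact and cover counting error only, and the floor is 3 counts. A 3-count level was 0.0582 to 0.0756 CPM in batch 1 and 0.324 and 0.342 CPM in batch 2. The p-values rest on the spread between the 6 libraries of 3 pooled experiments, after the terms of the fit. Those for batch take the 2 libraries of batch 2 as replicates, although they come from 1 experiment. They therefore do not measure a spread between experiments in batch 2.

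The genes, lists and rules were chosen with earlier results of these data known. The named genes are the 3 with the highest mean CPM of each type and up to 3 with the smallest p in each direction for subset and for batch, and for the other lists chosen genes and up to 2 with the smallest p in each direction. Other named genes were chosen after their values were seen. Libraries of 1 number come from 1 experiment, and their departures from the mean of each subset had correlations of 0.745, 0.729 and 0.907 over 10089 genes (0.241 within batch 1), so the numbers were taken as pairs. Alternatives covered the tool, scaling, filter, covariates, biotype and each library left out.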

Additional observations from a re-analysis of the deposited data

Results flagged for a closer look

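Of the histone cluster rows outside the 46 genes, 5 had more counts in 1 library than the 3 that a count of 0 allows. Hist1h2ag had 9 counts, all in F4/80high replicate 1. Hist1h3b had 6 in F4/80low replicate 2, and Hist1h3h had 4 in F4/80high replicate 2 and in F4/80low replicate 1. Hist2h2bb, listed as a lincRNA, had 7 counts, all in F4/80high replicate 2, and the pseudogene Hist3h2bb-ps had 4 in F4/80high replicate 2 and in F4/80low replicate 1. In batch 2 these rows had 0 counts, apart from 1 count of Hist3h2bb-ps, and no comparison was made.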

How the results depend on the processing

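In all 17 alternatives, 0 histone cluster genes were called between the subsets, and at an unadjusted p under 0.05 there were 0 to 2. Over all genes the call took 0, against 150 with DESeq2, 76 with the replicate block, 357 with DESeq2 and the block (added after the data were seen) and 0 to 55 when each library was left out, the 55 without F4/80high replicate 1. The block changed no call of a histone gene. The median log2 fold change of the histone genes (0.36) was 0.14 with filterByExpr, which keeps 30 of them, 0.15 without replicate 3 of both subsets and 0.15 to 0.38 with each library left out. The 10 genes called lower in batch 2 became 17 with library size alone and 7 to 10 with each library left out, where a batch of 1 library is assumed to vary like the rest. Over all genes, 1714 and 1617 were lower without F4/80high and F4/80low replicate 3, against 2969. The mean log2 ratio of the summed counts over the pairs (-0.079) was 0.34 without the highest gene of each type. Over the genes with no shared 75-base stretch it was 0.64 for all types, 0.18 for H1 (-0.33 over all H1 genes) and 1.01 for H2B (0.58 over all). That set holds 5 genes. Its H2B value is Hist2h2be alone, and its H1 value comes from 2 genes without Hist1h1c. Of the other lists, with 0 calls each, DESeq2 called 4 eosinophil, 1 macrophage and 4 neutrophil markers, the block 1 dendritic cell, 4 macrophage and 6 neutrophil markers, DESeq2 with the block 2 dendritic cell, 4 eosinophil, 4 macrophage, 1 melanoma and 8 neutrophil markers, and leaving out F4/80high replicate 1 left 1 eosinophil and 1 macrophage marker (0 to 1 for each library left out). Of 320 log2 fold changes of named genes, 298 kept their sign. Hist1h2ae turned to 0.47 with no batch term, 0.080 with filterByExpr, 0.022 with genes of all biotypes and 0.67 without replicate 3 of both subsets, where Hist1h2be turned to -0.12 and Hist1h3g to -0.28. With each library left out, log2 fold changes ran from -0.71 to 0.67 for Hist1h2ae, -0.25 to 1.15 for Hist1h2be, -1.05 to 1.51 for Hist1h3d, -0.27 to 6.50 for Hist1h3g, -0.058 to 2.56 for Hist1h4a, -0.28 to 0.35 for Hist1h4d and -0.56 to 0.46 for Hist2h3c2. The cause was not tested. Depth limits genes under 3 counts in batch 2.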
